A study of Homo sapiens with 1 sample.

Results

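Dense clusters of distal accessible sites were described in 786-O, a human cell line from a clear cell renal cell carcinoma (ccRCC) that lacks functional VHL. The cells carried an empty vector and served as the control for overexpression of DPF3a, whose library was not analysed here. Open chromatin was mapped by ATAC-seq, a method where Tn5 transposase cuts accessible DNA and tags it for sequencing. The data were the peak list of 1 library without a replicate. The label gives an empty vector, whereas the names of the peaks carry a wild-type tag, and the label was followed. All values therefore describe this library, and no p-value is given. A peak averages over all cells of the library, so a site open in fewer cells and a site less open in each cell cannot be told apart.

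The clusters were defined from the peaks themselves. Peaks on chromosomes 1 to 22 with a summit more than 1 kb from every transcription start site (TSS) of GENCODE 44 were called distal, neighbours whose intervals lay at most 12.5 kb apart were joined, and joined regions with 8 or more peaks were kept as dense regions. This gave 542 dense regions out of 35653 joined regions (1.52%). They held 5695 of the 65875 distal peaks, or 8.65% (exact 95% interval, 8.43 to 8.86), within 24.8 Mb, or 0.901% of the sequenced autosomes. The whole list had 88676 peaks, 86239 of them autosomal and 20364 of those within 1 kb of a TSS. Since peak positions chose the regions, their number, length and peak density are descriptions.

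Distal accessible sites are for the most part candidate enhancers, stretches of DNA where transcription factors bind and from which the promoter of a gene some distance away can be regulated. Enhancers often lie in clusters near genes that a cell type uses heavily, and large clusters with strong factor binding or histone acetylation have been called super-enhancers or stretch enhancers. In ccRCC, loss of VHL stabilises hypoxia-inducible factors (HIFs), which bind such distal sites, and in many epithelial tumour lines AP-1, the dimer of FOS and JUN proteins, occupies a large share of them. ATAC-seq shows only that a site is open. No histone mark or factor binding was used here, so the regions are called dense regions and not super-enhancers.

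The identity of the line was checked at promoters. Of the renal genes PAX2, PAX8, LHX1, EMX2 and CDH16, a peak summit lay within 1 kb of a TSS at PAX8 (fold 113), CDH16 (fold 29.4) and PAX2 (fold 22.7), and none was listed at LHX1 or EMX2. The mesenchymal genes VIM (fold 47.9) and CDH2 (fold 25.8) had a promoter peak. None was listed at the leukocyte genes PTPRC and CD3E, the endothelial genes PECAM1 and VWF or the hepatocyte gene ALB.

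To show what the dense regions consist of, the sequence from 50 bp before to 50 bp after the summit of the strongest peak is given for 6 of the 7 regions with most peaks, each named by the gene with the nearest protein-coding TSS (hg38, plus strand, capitals mark AP-1 sites).
TRIO region, chr5:14190389-14190489: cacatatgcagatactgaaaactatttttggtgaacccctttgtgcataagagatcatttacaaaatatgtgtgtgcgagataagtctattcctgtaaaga
SMAD3 region, chr15:67144721-67144821: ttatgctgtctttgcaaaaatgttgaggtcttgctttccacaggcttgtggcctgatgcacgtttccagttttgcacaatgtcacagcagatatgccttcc
ERRFI1 region, chr1:8077326-8077426: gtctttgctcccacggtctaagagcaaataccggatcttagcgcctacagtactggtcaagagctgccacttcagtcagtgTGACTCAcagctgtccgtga
MYO1E region, chr15:59295130-59295230: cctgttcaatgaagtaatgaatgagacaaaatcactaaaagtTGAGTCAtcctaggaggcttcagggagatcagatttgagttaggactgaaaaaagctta
TGFBI region, chr5:136017108-136017208: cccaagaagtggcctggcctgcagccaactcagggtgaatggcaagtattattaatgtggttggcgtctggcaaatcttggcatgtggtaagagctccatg
ZMIZ1 region, chr10:79150145-79150245: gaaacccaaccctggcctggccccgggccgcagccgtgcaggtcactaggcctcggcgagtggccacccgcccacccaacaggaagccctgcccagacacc
The strongest peaks of the ERRFI1 and MYO1E regions carried an AP-1 site, whereas those of the TRIO, SMAD3, TGFBI and ZMIZ1 regions did not. Their GC content ran from 34.7% in the TRIO region to 72.3% in the ZMIZ1 region.

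The dense regions had a median of 9 peaks, with a range of 8 to 53, and a median span of 42.9 kb, with a range of 11.8 to 142 kb. Most were small, as 186 regions had exactly 8 peaks, 65 had 15 or more, 14 had 20 or more and 2 had 25 or more. Neighbouring summits lay a median of 3721 bp apart, and 24.6% of the gaps between neighbouring peaks were under 1 kb. Peaks covered a median of 17.2% of a region. On the other side of the limit, 251 joined regions had exactly 7 peaks. Their median span was 31.8 kb and their median summed fold 113, compared with 34.7 kb and 135 for the regions of exactly 8 peaks.

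Peak strength is given as the fold, the ratio of the pileup at the summit to the genome-wide background pileup as the peak caller computes it. The median fold of the 5695 peaks was 11.3 (order-statistic 95% interval, 11.3 to 11.9), with quartiles of 6.70 and 24.2 and a highest value of 155. The strongest peak of a region had a median fold of 48.4 and took a median of 26.0% of the summed fold of its region. Strong and weak sites therefore stood side by side in most regions. A pileup under 15, which corresponds to a depth where counting error is wide, lay behind 1889 of the 5695 peaks (33.2%), and a region held a median of 3 such peaks. A fold of 5.15, the lowest in the list, rests on a pileup of 9 and has an exact Poisson 95% interval of 2.64 to 9.32.

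**Figure D1:**
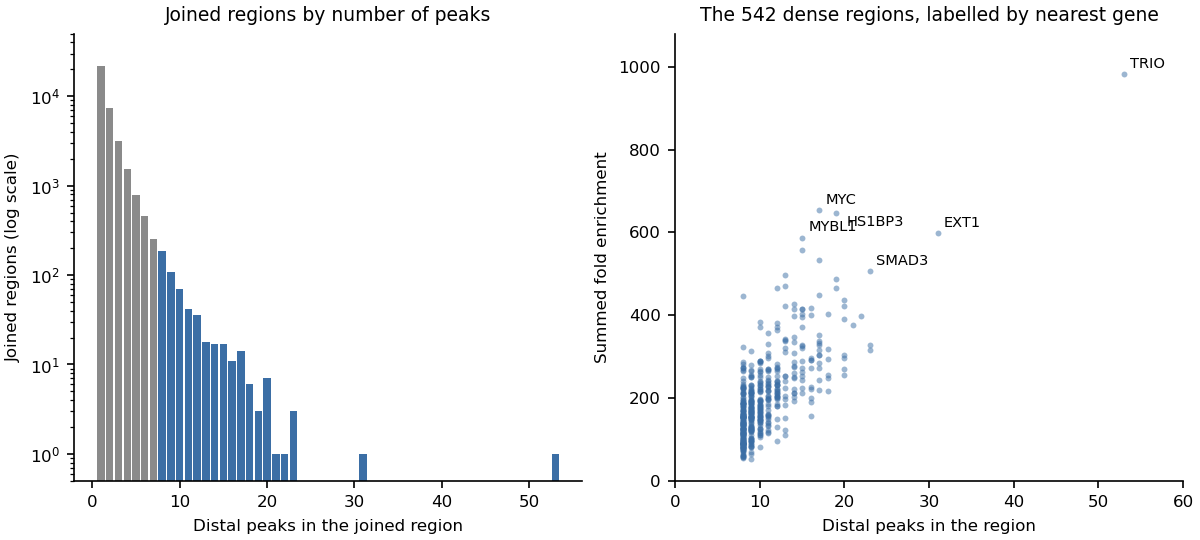
Left, number of joined regions (log scale) by the number of distal peaks they hold, with dense regions in blue and smaller regions in grey. Right, summed fold of each of the 542 dense regions against its number of peaks, where each point is a region. The TRIO region, with 53 peaks and a summed fold of 983, stands apart from the others, which have at most 31 peaks.

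Peaks with more neighbours were stronger and wider. The median fold was 8.24 for the 21664 distal peaks that joined no neighbour, 9.79 in regions of 2 to 3 peaks, 10.8 in regions of 4 to 7 peaks and 11.3 in the dense regions. The median width rose over the same classes from 427 to 481, 538 and 607 bp. The share with a pileup under 15 fell from 46.0% to 33.2%. The dense regions had a higher median fold than the other distal peaks of the same chromosome on 19 of 22 chromosomes, an equal one on chromosomes 4 and 19 and a lower one on chromosome 17 (8.76 compared with 9.28). Fold and joining both rest on the same pileups, so these values are a description. The promoter peaks within 1 Mb had nearly the same median fold around all classes, with 18.0 around peaks without a neighbour and 18.6 around dense regions (medians over regions with 5 or more promoter peaks within 1 Mb of their middle).

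Summits in dense regions were more often intronic. Introns held 3714 of the 5695 summits, or 65.2% (64.0 to 66.5), compared with 59.4% (58.7 to 60.0) of distal peaks without a neighbour. Exons held 4.57% and intergenic sequence 30.2% (29.0 to 31.4), compared with 5.10% and 35.5%. The mean GC content within 50 bp of the summit was 49.9% (SD 8.58) in dense regions and 47.8% (SD 8.81) at peaks without a neighbour. These intervals cover counting error only, and peaks of the same region are not independent.

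The region with most peaks was at TRIO, which encodes a guanine nucleotide exchange factor that acts in cell migration. It lay at chr5:14140359-14282112, spanned 142 kb and held 53 peaks, 52 of them in introns of TRIO and 1 upstream of the gene. Folds ran from 5.15 to 99.4 with a median of 7.21. Peaks covered 35.8% of the region, and 29 of the 53 peaks had a pileup under 15. The strongest peak had a fold of 99.4 (exact Poisson interval, 86.0 to 114), close to the fold of 106 at the highest promoter peak of TRIO. A further 3 dense regions of 8 to 9 peaks had TRIO as their nearest gene, so that 79 peaks in 4 regions lay at this locus. The 14 promoter peaks within 1 Mb of the first region had a median fold of 26.3, while the corresponding median of a dense region ran from 6.18 to 62.9.

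Of the 53 TRIO peaks, 6 had an AP-1 site within 50 bp of the summit, and 5 of these are shown because they span nearly the whole range of folds in the region (plus strand of hg38, capitals mark the site).
TRIO AP-1 peak of fold 98.9, chr5:14268422-14268522: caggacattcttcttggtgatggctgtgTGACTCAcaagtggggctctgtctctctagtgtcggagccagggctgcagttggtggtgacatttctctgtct
TRIO AP-1 peak of fold 67, chr5:14178757-14178857: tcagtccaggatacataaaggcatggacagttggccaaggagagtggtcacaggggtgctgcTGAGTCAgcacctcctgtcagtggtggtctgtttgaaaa
TRIO AP-1 peak of fold 46.9, chr5:14165621-14165721: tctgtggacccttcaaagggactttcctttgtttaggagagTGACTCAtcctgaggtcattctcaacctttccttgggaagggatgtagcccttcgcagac
TRIO AP-1 peak of fold 14.9, chr5:14167655-14167755: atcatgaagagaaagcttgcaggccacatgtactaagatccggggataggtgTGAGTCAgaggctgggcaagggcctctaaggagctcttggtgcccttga
TRIO AP-1 peak of fold 5.15, chr5:14243895-14243995: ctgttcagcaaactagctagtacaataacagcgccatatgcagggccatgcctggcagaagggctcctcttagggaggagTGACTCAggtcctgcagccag
Their folds ran from 5.15 to 98.9. The strongest of them nearly equalled the strongest peak of the region, and the weakest was at the lowest fold in the list.

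**Figure D2:**
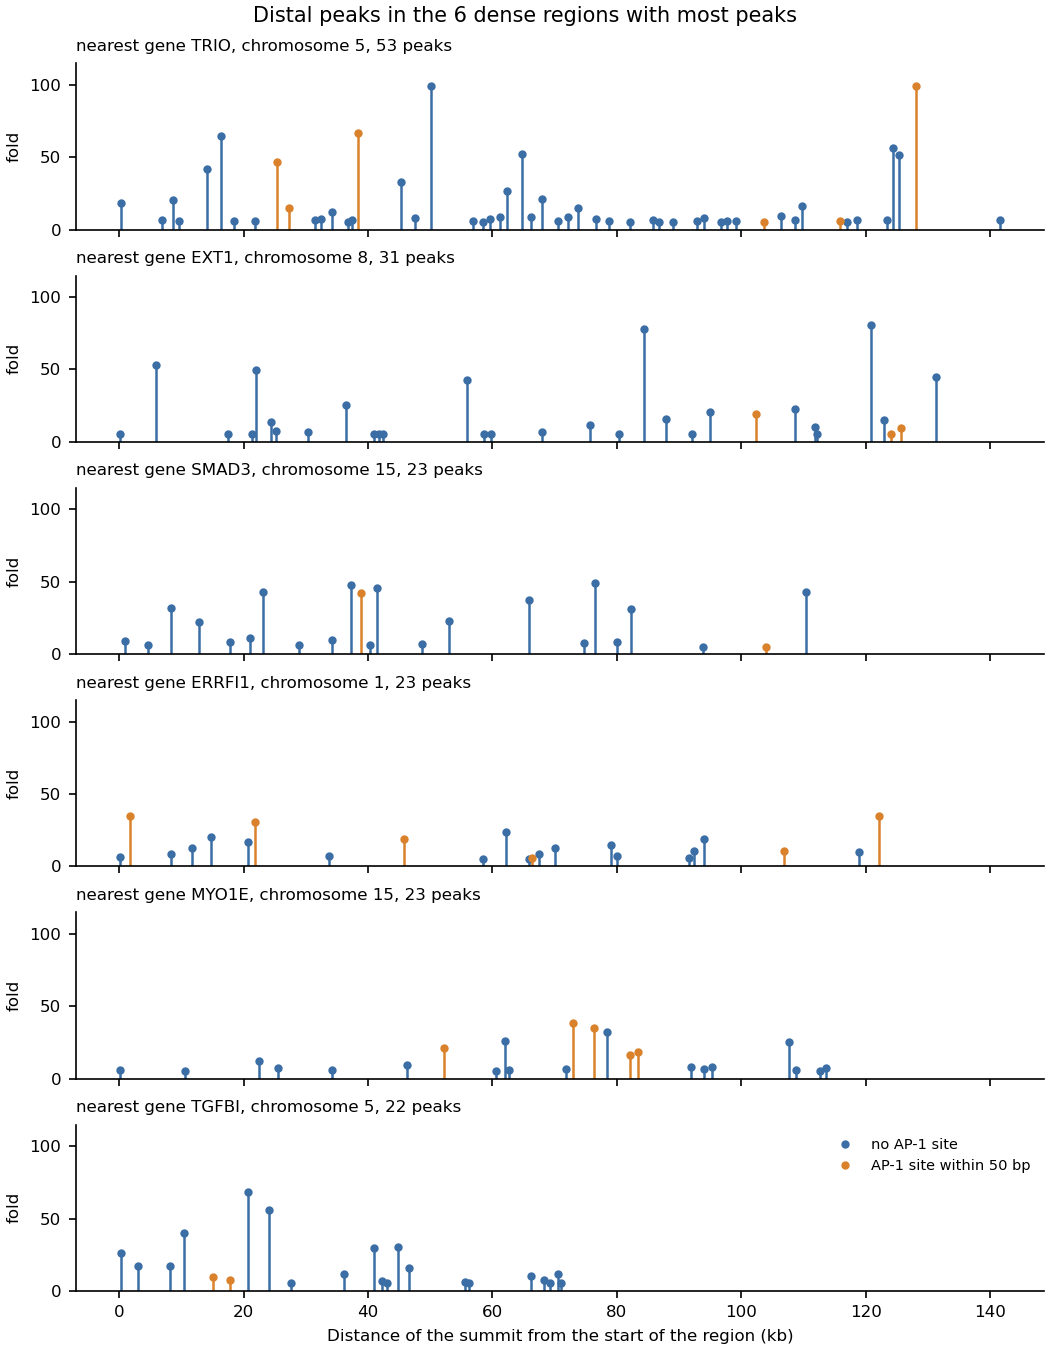
Fold at the summit of each distal peak (vertical axis) against its distance from the start of the region in kb (horizontal axis) for the 6 dense regions with most peaks, with peaks that have an AP-1 site within 50 bp of the summit in orange. In the TRIO region, where the median is 7.21, a few peaks near 100 stand among many weak ones.

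EXT1, a glycosyltransferase that elongates heparan sulphate chains, had the region with the next highest number of peaks. Its 31 peaks lay within 132 kb of an EXT1 intron on chromosome 8 (117825791 to 117958151), with folds of 5.15 to 80.9 and a median of 9.79. The region was 18889 bp from the nearest TSS of EXT1, whose highest promoter peak had a fold of 47.4. The median fold of the 8 promoter peaks within 1 Mb was 33.5. Another 2 regions were nearest to the same gene, and the 3 regions held 66 peaks.

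SMAD3, the receptor-activated SMAD that carries the TGF-β signal to the nucleus, had 23 peaks within 111 kb (chr15:67068294-67179065). All 23 lay inside the gene, 22 in introns and 1 in an exon. Folds ran from 5.15 to 49.0 with a median of 10.8, and no peak took more than 9.66% of the summed fold, the lowest such share among the 542 regions. The summits had 2 AP-1 sites and 2 NF-kB sites.

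ERRFI1, an inhibitor of the EGF receptor, was the nearest gene to a region of 23 peaks on chromosome 1 (8075729 to 8198608), at a distance of 49420 bp. All 23 summits lay upstream of ERRFI1, 13 of them intergenic, 8 intronic and 2 exonic in lncRNA genes such as ERRFI1-DT, since no protein-coding gene overlapped the region. Folds ran from 5.15 to 35.0 with a median of 10.8. With 6 of 23 summits, it shared the highest number of AP-1 peaks among the 542 regions with the TRIO region and the region nearest to MLPH, a melanosome transport gene.

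MYO1E, a class I myosin that binds membranes, held a region of 23 peaks (chr15:59222158-59336007), all within the gene. Their folds ran from 5.15 to 38.1 with a median of 7.73, and 13 had a pileup under 15. AP-1 sites lay at 5 summits, the strongest included.

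TGFBI, an extracellular matrix protein that TGF-β induces, had 22 peaks within 71.3 kb (chr5:135996505-136067767). Of these, 9 lay upstream of the gene, 9 inside it and 4 downstream. Folds ran from 5.15 to 68.0 with a median of 11.1, and the promoter reached a fold of 97.4. The strongest distal peak was intergenic and upstream.

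The other 4 of the 10 regions with most peaks had 20 or 21 peaks. Since 7 regions had exactly 20, the 3 of them with the highest summed fold were taken. At ZMIZ1, a transcriptional coregulator of the PIAS type, 21 intronic peaks had folds of 6.18 to 55.1 with a median of 11.9, and 4 had a pileup under 15. At TRIB1, a pseudokinase that directs protein degradation through COP1, 14 of 20 peaks lay upstream of the gene, and an intergenic peak reached a fold of 128 (112 to 145) beside a promoter peak of 114. The region nearest to LIF, a cytokine of the interleukin-6 family, had 20 peaks with folds of 5.15 to 50.0 and a median of 18.3, of which 15 lay downstream of the gene. The list held no summit within 1 kb of a TSS of LIF itself. At GADD45A, a growth arrest gene induced by DNA damage, 19 of 20 peaks lay downstream of the gene. Of the 20 peaks, 15 were intronic where the region overlaps GNG12, and the peaks had folds of 5.15 to 49.5 and a median of 15.7. The 10 promoter peaks within 1 Mb had a median fold of 43.8, and the part of local signal in this region was not tested.

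Ranking by other measures brought up other loci. The highest summed folds after that of TRIO were 653 for a region of 17 peaks in the lncRNA gene PVT1, 647 for the HS1BP3 region, 598 for the EXT1 region and 587 for the MYBL1 region. The PVT1 region was 112099 bp from the TSS of MYC, a growth-promoting transcription factor whose nearby enhancers lie in this interval in several cell types. Its median fold of 27.3 was well above the median of 11.3 over all dense-region peaks. HS1BP3 held 19 peaks within its own gene and none had an AP-1 site. The region nearest to MYBL1, a MYB-family transcription factor, had 15 peaks with a median fold of 34.0. Of the 542 dense regions, 357 (65.9%) were also among the 542 joined regions of highest summed fold, where the smallest had 2 peaks.

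The most tightly packed regions were not the large ones. The 5 highest densities ran from 5.22 to 6.75 peaks per 10 kb, compared with a median of 2.31 over all regions, and each of these regions had exactly 8 peaks. They lay in PRKCA, a protein kinase C, in HIVEP3, a zinc finger protein, in KCNMA1, the pore subunit of a calcium-activated potassium channel, in MGLL near ABTB1, and in PRICKLE2, a planar cell polarity gene. The 5 longest regions were those of TRIO, EXT1, ERRFI1, MYO1E and SMAD3.

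Several genes had more than 1 dense region. In all, 48 protein-coding genes were nearest to 2 or more regions and 7 to 3 or more. MYC and ASAP1, an ARF GTPase-activating protein of focal adhesions, had 4 regions each, like TRIO, although the 4 regions of MYC lay 60781 to 760621 bp from its TSS. TRIB1, EXT1, ABCA1, the cholesterol efflux transporter, and CMIP had 3 each. Among the genes with 2 regions were TGFB2, the protein phosphatase gene PTPN14 with 31, DUSP5, an ERK phosphatase, with 28, and the transcription factor genes ETS1, KLF6, NR2F2 and FOSL2 with 17 to 21. CDK6, a cyclin-dependent kinase of the G1 phase, had 28 peaks in 2 regions, but no summit was listed within 1 kb of its TSSs. The numbers in the peak names have gaps, so the list does not hold every called peak, and a promoter without a listed peak cannot be read as closed.

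Dense regions were unevenly spread over chromosomes. Their number per 100 Mb of sequence ran from 3.31 on chromosome 14 to 37.5 on chromosome 20, around 19.7 over all autosomes. Chromosome 1 held the highest number, 75. Chromosomes 5, 7 and 8 held 128 regions (23.6%; 20.1 to 27.4), compared with 19.4% of distal peaks and 17.6% of the sequence. They were not the densest, with 25.4, 26.4 and 27.6 regions per 100 Mb. Chromosomes 20 (37.5), 9 (32.8), 1 (32.5), 10 (30.8) and 22 (30.6) had more. The median fold of promoter peaks, which the rule left out, was 19.6 on chromosome 5, 21.4 on chromosome 7 and 15.2 on chromosome 8, and 17.0 at all promoter peaks outside dense regions. The part of DNA copy number in the counts was not tested.

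**Figure D3:**
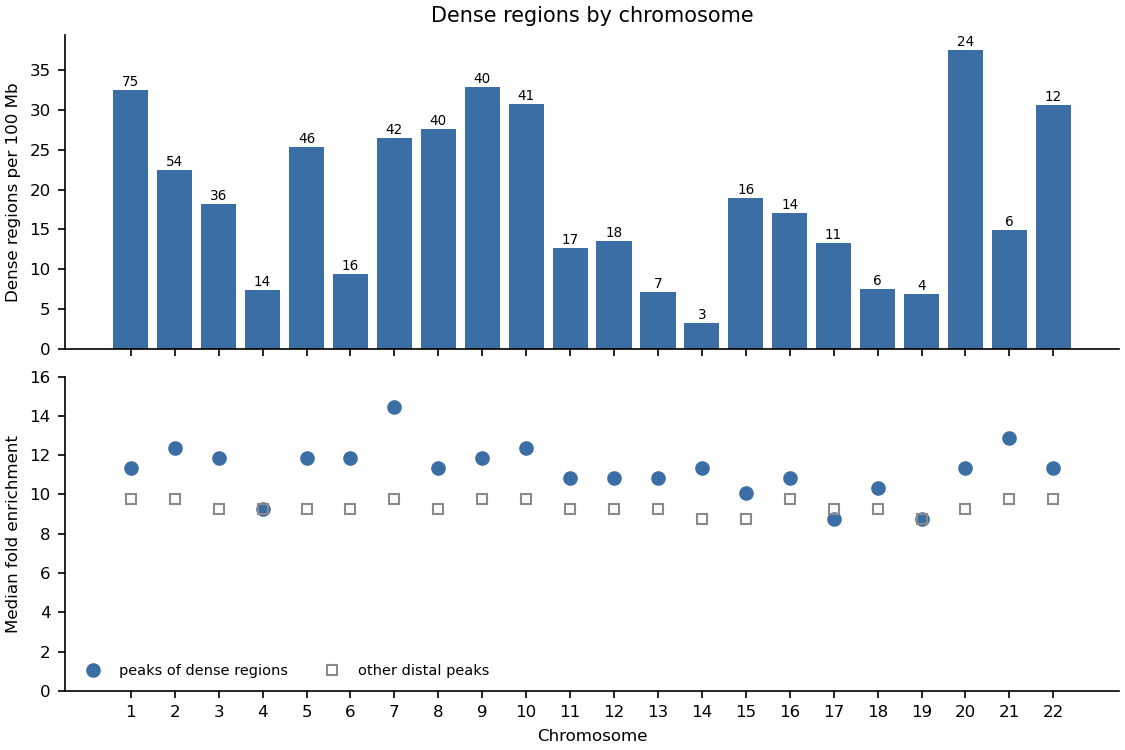
Top, dense regions per 100 Mb of sequence on each autosome, with the number of regions above each bar. Bottom, median fold of the distal peaks inside dense regions (filled circles) and of the other distal peaks (open squares) on each autosome. Regions per 100 Mb range from 3.31 to 37.5, and the circle is above the square on 19 of 22 chromosomes.

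The sequence under the summits was then compared, since the rule did not use it. Each summit was searched for 13 motifs, in either orientation, in the 50 bp to its left and right. AP-1 sites (TGACTCA) were less frequent in dense regions than elsewhere. They lay at 947 of 5695 summits, or 16.6% (15.7 to 17.6), whereas the share was 18.3% over all 65875 distal summits and 18.4% over those outside dense regions. The ratio of the latter comparison was 0.902 (log-scale 95% interval, 0.849 to 0.958). Over the size classes the share fell from 18.7% at peaks without a neighbour to 18.6%, 17.8% (17.1 to 18.4) and 16.6%. The intervals for regions of 4 to 7 peaks and for dense regions overlap. Within 4 bins of fold the ratio was 0.730, 0.822, 0.887 and 0.900 from the weakest to the strongest bin, so the lower share was seen at weak and strong peaks alike, although the interval reached 1.01 in the third bin. It was below the share of other distal peaks on 17 of 22 chromosomes. The interval also included 1 in 3 of 4 bins of GC content, where the ratios were 0.943, 0.933, 0.815 and 0.984, and when a promoter peak was made to end a region (0.964; 0.899 to 1.03).

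By region, at least 1 AP-1 summit was found in 455 of 542 regions (83.9%; 80.6 to 86.9), 2 or more in 270 and 5 or more in 25. Since each region has 8 or more summits and the share over all distal summits was 18.3%, these counts are no measure of enrichment. AP-1 sites lay at 128 of the 542 strongest peaks (23.6%; 20.1 to 27.4), compared with 15.9% (14.9 to 16.9) of the other peaks of the regions. Strong peaks elsewhere had a like share, as in the strongest bin of fold it was 24.9% outside dense regions and 22.4% inside them. The median fold of dense-region peaks was 16.5 (14.4 to 18.0) with an AP-1 site and 10.8 (10.8 to 11.3) without, and the corresponding medians at other distal peaks were 11.3 and 9.28. A scrambled AP-1 sequence (ATCAGTC) was found at 70 summits, or 1.23%, compared with 1.17% of all distal summits.

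CTCF, which marks boundaries of chromatin domains, was less frequent as well. Its sites were found at 59 dense-region summits, or 1.04% (0.790 to 1.33), compared with 1.75% of all distal summits, and the ratio to the other distal summits was 0.569 (0.438 to 0.738). Within bins of fold the ratio was 0.314, 0.654, 0.917 and 0.552, and its interval included 1 in all bins but the weakest. Within bins of GC content it was 0.547, 0.455, 0.326 and 0.577, with intervals below 1 in the upper 2 bins, where most CTCF sites lay. The share fell in order from 2.48% at peaks without a neighbour to 1.65%, 1.12% and 1.04%. No strongest peak carried a CTCF site, and a limit of 3 counts in 542 allows a share of up to 0.554% (exact upper bound, 0.678%). CTCF sites were rare at strong peaks elsewhere too, as in the strongest bin of fold the share was 0.636% outside dense regions and 0.351% inside them. Within the regions, CTCF sites lay at 1.75% (1.06 to 2.72) of the outermost summits and 0.867% (0.620 to 1.18) of the inner ones, with intervals that overlap.

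NF-kB, the factor that mediates much of the response to inflammatory cytokines, had a higher share in dense regions. Its sites lay at 73 summits, or 1.28% (1.01 to 1.61), compared with 0.935% of all distal summits, with a ratio of 1.42 (1.11 to 1.81) to the others. The share rose in order over the size classes, from 0.794% to 0.926%, 1.03% and 1.28%. By bins of fold, the ratio was 0.810 and 0.831 in the lower 2 bins of fold, with intervals that included 1, and 1.73 (1.07 to 2.79) and 1.63 (1.15 to 2.31) in the upper 2. Whether the ratio differs between bins was not tested. Within bins of GC content it was 1.75, 1.42, 1.20 and 1.34, and all 4 intervals included 1. NF-kB sites lay at 5 of the 542 strongest peaks (0.923%; 0.300 to 2.14) and at 1.32% (1.03 to 1.67) of the other peaks of the regions. In all, 67 of 542 regions had an NF-kB summit, and 6 had 2 or more, those nearest to ABCC4, SMAD3, LIF, DLG1, HIVEP2 and MYBL1.

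For the other motifs the interval of the ratio included 1, apart from ETS, where it ended just below. TEAD sites (ACATTCC), where the YAP and TAZ coactivators act, were found at 3.76% of dense-region summits and 3.45% of all distal summits (ratio to the others, 1.10; 0.958 to 1.26). RUNX sites (TGTGGTT) had shares of 5.86% and 6.09%, and C/EBP sites (TTGCNNAA) of 4.62% and 4.95%. The core hypoxia response element (HRE, ACGTGC), the site of HIFs, was found at 107 summits, or 1.88% (1.54 to 2.27), compared with 1.69%. SP/KLF sites (GGGCGGG) had shares of 1.47% and 1.29%. ETS sites (CCGGAAG) had shares of 0.421% and 0.618%, with a ratio of 0.662 (0.439 to 0.999). The cAMP response element (TGACGTCA) was found at 12 summits, the SMAD palindrome (GTCTAGAC) at 3 and the HNF1 site at 2, and over all distal summits these sites had shares of 0.146%, 0.0941% and 0.0319%. These 13 searches were made side by side, and a motif match is no evidence that its factor was bound.

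**Figure D4:**
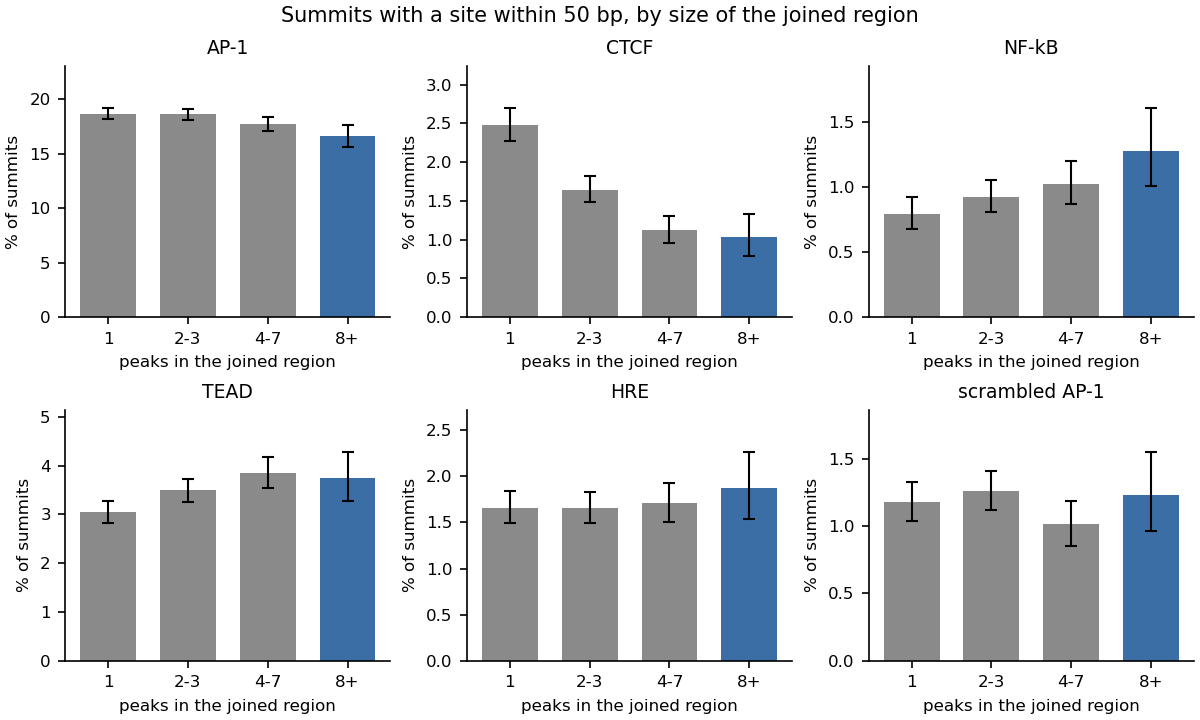
Percent of distal summits with a site within 50 bp, by the number of peaks in the joined region, with dense regions in blue. Bars are shares and whiskers are exact 95% intervals for counting error. AP-1 falls from 18.7% to 16.6% and CTCF from 2.48% to 1.04%, whereas NF-kB rises from 0.794% to 1.28%.

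To ask whether the genes beside dense regions had open promoters, promoter peaks were counted, which the rule had left out. A protein-coding TSS lay inside 281 of 542 regions (51.8%; 47.5 to 56.1), within 50 kb of another 182 and further away for 79. Of the regions, 199 (36.7%) lay wholly inside a protein-coding gene and 128 (23.6%) overlapped none. The 542 regions had 484 different nearest genes. A promoter peak was found at 433 of these, or 89.5% (86.4 to 92.1), compared with 66.7% of all 19111 autosomal protein-coding genes and 66.1% (65.4 to 66.8) of those that were not nearest. With the canonical transcript alone, the shares were 76.0% (72.0 to 79.8) and 60.2% (59.5 to 60.9) of all genes. The share was 90.4% for nearest genes with a TSS inside the region and 88.4% for those with a TSS outside. A gene was counted by any of its TSSs, so the peak need not lie in the region. Of the 281 regions with a protein-coding TSS inside, 213 held a promoter peak within their span (75.8%; 70.4 to 80.7). Over all 542 regions, 256 held such a peak (47.2%). The median fold of the highest promoter peak was 30.9 (27.8 to 33.0) at nearest genes and 25.8 (25.2 to 26.3) at the other genes that had a promoter peak. Among all 878 protein-coding genes with a TSS inside or within 50 kb of a dense region, 743 had a promoter peak (84.6%; 82.1 to 86.9). Genes nearest to smaller joined regions were not set beside these, so the high share cannot be called particular to dense regions. An open promoter cannot be read as expression.

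The summits lay inside the body of the nearest gene for 3012 of 5695 peaks (52.9%; 51.6 to 54.2), upstream of it for 1593 (28.0%) and downstream for 1090 (19.1%). In 185 regions every peak was inside that gene, in 82 every peak was upstream and in 59 every peak was downstream. miRNA genes lay in 21 regions. Among them were the region nearest to IL17B, whose 16 peaks included the MIR143 and MIR145 genes in their span, and the region nearest to CD46 with MIR29C and MIR29B2, which were picked out after the values were seen.

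Genes of 9 lists were then placed against the regions. Of all autosomal protein-coding genes, 878 (4.59%) had a TSS inside or within 50 kb of a dense region. Of the 164 autosomal genes on the lists, 35 did (21.3%; 15.3 to 28.4). The lists cover pathways studied in this tumour type and were written with results of these data known, so this share is a description. The counts ran from 0 of 20 genes of SWI/SNF subunits (exact interval, up to 16.8%) to 6 of 16 receptor tyrosine kinase genes (15.2 to 64.6). These intervals overlap, the SWI/SNF interval includes the 4.59% of all genes, and a difference between lists was not tested.

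In the TGF-β pathway, 6 of 20 genes were near a dense region, among them a ligand, a receptor, a signal carrier, an inhibitor and a target. The ligand gene TGFB2 had 17 peaks, 15 inside the gene and 2 upstream, with folds of 5.15 to 70.6 (median 10.8), and another region lay 29062 bp away. The receptor gene TGFBR1 was 45.5 kb from a region of 12 upstream peaks with folds of 5.15 to 99.97 (median 11.6), whose nearest gene was COL15A1. SMAD3 is described above. SMAD7, which blocks the receptor, had 13 peaks that were all weak, with folds of 5.15 to 14.4 (median 7.21), although its promoter reached 51.0. The target TGFBI is described above as well. The highest distal fold was above the highest promoter fold at TGFB2 (promoter 54.1), TGFBR1 (50.5) and SMAD3 (37.6), and below it at SMAD7 and TGFBI.

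Of the hypoxia list, 6 of 20 genes were near a region. SLC2A1, the glucose transporter GLUT1, had 20 peaks with folds of 5.15 to 56.2 (median 9.53), of which 8 had a pileup under 15. BHLHE40, a repressor induced by hypoxia, had 13 peaks with folds of 6.18 to 81.9 and a median of 36.6, the highest median among the regions of listed genes. PFKFB3, which drives glycolysis, had 9 peaks with folds of 5.15 to 87.1 (median 14.9). TGFA, an EGF receptor ligand, had 14 peaks with folds of 5.15 to 57.7 (median 8.50). NDRG1 had 9 peaks, 7 of them with a pileup under 15 and 1 with a fold of 68.0. EGLN3, a prolyl hydroxylase of HIFs, had 9 peaks inside the gene with folds of 5.67 to 28.3 (median 16.5). HREs were found at 2 summits of the EGLN3 region and at none of the regions of the other 5 genes.

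The cytokine list had 3 of 20 genes near a region. IL1A, an interleukin-1 ligand, was 33.8 kb from a region of 9 peaks with folds of 5.15 to 73.7 (median 10.3) and had no promoter peak itself. BIRC3, an NF-kB target that inhibits apoptosis, was 29.1 kb from a region of 9 peaks, which was also the region nearest to YAP1. LIF was the other. Because NF-kB and HRE sites were rare, the HRE windows of the EGLN3 region and the NF-kB windows of the SMAD3 and LIF regions are shown. The SMAD3 region also had 1 HRE, within the window of its strongest peak given above, where it is not capitalised, and the LIF region had 2 that are not shown. The printed windows were chosen after the matches were seen (hg38, plus strand, capitals mark the site).
EGLN3 region, HRE, chr14:34035771-34035871: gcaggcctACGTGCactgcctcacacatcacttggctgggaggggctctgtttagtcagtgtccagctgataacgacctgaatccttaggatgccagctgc
EGLN3 region, HRE, chr14:34060314-34060414: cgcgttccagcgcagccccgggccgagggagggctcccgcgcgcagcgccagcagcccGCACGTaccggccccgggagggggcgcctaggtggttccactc
SMAD3 region, NF-kB, chr15:67116911-67117011: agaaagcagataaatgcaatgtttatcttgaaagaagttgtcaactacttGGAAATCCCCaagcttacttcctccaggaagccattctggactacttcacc
SMAD3 region, NF-kB, chr15:67121207-67121307: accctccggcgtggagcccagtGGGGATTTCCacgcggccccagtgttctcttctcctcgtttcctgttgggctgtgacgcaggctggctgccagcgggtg
LIF region, NF-kB, chr22:30226585-30226685: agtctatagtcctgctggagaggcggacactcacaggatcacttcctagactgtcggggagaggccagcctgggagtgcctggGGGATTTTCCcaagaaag
LIF region, NF-kB, chr22:30250876-30250976: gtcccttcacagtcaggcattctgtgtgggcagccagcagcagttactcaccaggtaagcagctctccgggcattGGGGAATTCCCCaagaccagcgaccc
The folds of these 6 windows ran from 7.21 to 29.9, and none was the strongest peak of its region except the window at chr14:34035771-34035871, with a fold of 28.3.

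Among AP-1 and TEAD-YAP genes, 5 of 21 were near a region. The FOS-family genes FOSL1 and FOSL2 had 8 and 10 peaks, with folds of up to 36.6 and 80.9. The coactivator gene WWTR1, which encodes TAZ, had 17 peaks that were all in the gene (folds 5.15 to 60.3, median 12.9). YAP1 was 10.0 kb from a region of 9 peaks downstream with folds of up to 20.6. AMOTL2, a target and inhibitor of YAP, was 26.0 kb from 9 peaks with folds of 5.67 to 59.3.

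Of the receptor tyrosine kinases, 6 of 16 were near a region. MET had 13 peaks inside the gene with folds of 5.15 to 83.0 (median 18.0) and a promoter peak of 84.0. EGFR had 11 peaks inside the gene with folds of 5.15 to 71.1 (median 17.0). The highest was above its promoter peak of 24.7, whereas the median was below it. EPHA2 had 17 peaks, 12 of them upstream, with a median fold of 12.9. PDGFRB had 9 peaks with a median fold of 6.18, and 5 of them had a pileup under 15. IGF1R had 8 peaks with folds of up to 18.6 and ROR1 10 peaks with folds of up to 26.3. No AP-1 site was found at the summits of the MET, EGFR, EPHA2 and PDGFRB regions or of the ROR1 region of 10 peaks, compared with 16.6% of all dense-region summits. The IGF1R region had 1 and the other ROR1 region, of 8 peaks, had 2.

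Of the mesenchymal and adhesion list, 6 of 20 genes were near a region. TNC, the matrix protein tenascin C, had 12 peaks with folds of 5.67 to 32.5 (median 20.6), 10 of them upstream. Another region lay 12369 bp from TNC, and the 2 regions together held 20 peaks. ITGA3, an integrin subunit, had 10 peaks with a median fold of 27.8, above its promoter peak of 17.0, and LAMB3, a laminin chain, had 12 peaks with a median of 18.3. TPM1, a tropomyosin, had 11 peaks (median 7.21) and CAV1, the main protein of caveolae, 9 downstream peaks at 43.4 kb (median 17.5).

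Of the 8 cell movement genes, 2 were near a region. SNAI1, a transcription factor of epithelial-mesenchymal transition, had 9 peaks with folds of 5.15 to 19.1 (median 8.24) and a promoter peak of 10.8. COL6A3, a collagen VI chain, was 23.7 kb from a region of 8 downstream peaks with folds of 5.67 to 30.4 and had no promoter peak. Of the renal lineage list, PAX8 alone of 20 genes was near a region (5.00%; 0.127 to 24.9), close to the 4.59% of all genes. Its 10 peaks had folds of 5.67 to 46.9 (median 12.6), 6 of them downstream of the gene, none carried an AP-1 site, and its promoter peak of 113 was the highest of the 35 listed genes.

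**Figure D5:**
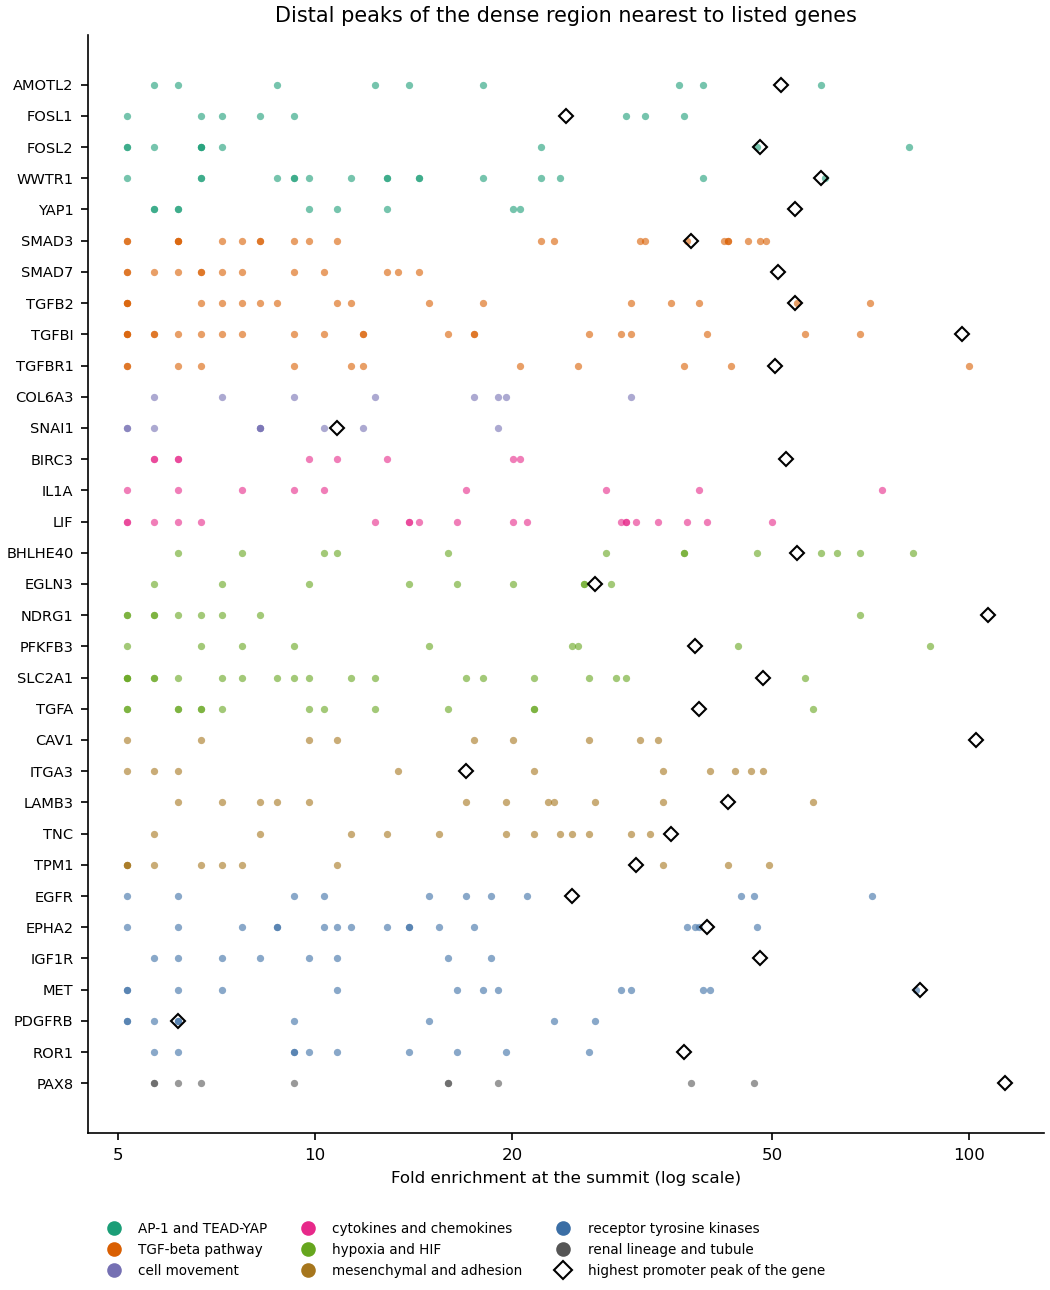
Fold at the summit (log scale) of every distal peak in the dense region nearest to each plotted gene of the lists, coloured by list, with the highest promoter peak of the gene as an open diamond where it has any. PAX8 has the highest promoter peak (113), and all its distal peaks lie to the left of it. At EGFR, ITGA3 and several other plotted genes, some distal peaks lie to the right of the promoter.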

How the data were processed

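ATAC-seq peaks of 1 empty-vector 786-O library were analysed. Per the labels and methods, the authors used fastp for trimming and Bowtie2 2.3.4.3 for alignment to hg38, removed reads of low mapping quality, mitochondrial reads and duplicates, and called peaks on each library by itself with MACS2 2.2.6 against a genome-wide background. No Tn5 shift is stated, so how far summits lie from the cut sites is not known. The motif windows of 50 bp share this limit. The deposited ratio is the fold of summit pileup over background, and the deposited score, −log10 p-values and −log10 q-values follow from the same pileup. The lowest deposited score was 52, and gaps in the peak numbers show that the list used here does not hold all called peaks. The fold equals the pileup plus 1 over the background (0.941) plus 1, with pileups of 9 to 300. Total depth is unknown.

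Joining, TSS distances (hg38, GENCODE 44), motif searches and nearest genes were computed in Python 3.11.15 with numpy 2.4.6, pandas 2.3.3, scipy 1.17.1, pysam and matplotlib, and were tested on simulated data. Shares carry exact (Clopper-Pearson) intervals, ratios of shares log-scale intervals and medians order-statistic intervals, all at 95% and for counting error only. The members and gene lists were chosen with earlier results of these data known. Named were the 10 regions with most peaks, the leading 5 by summed fold, density and length, genes nearest to several regions, and listed genes within 50 kb. Alternatives changed the joining distance, minimum of peaks, score minimum, TSS rule, motif window and chromosomes. A few named genes and a sequence that met these rules are not reported here.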

Additional observations from a re-analysis of the deposited data

How the results depend on the processing

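Settings that define the regions changed how many there were. The number of regions was 73 with joining up to 5 kb, 1413 with 25 kb, 1253 with 6 or more peaks, 247 with 10 or more, 166 at a score above 100, 50 above 200, and 352 with summits over 2.5 kb from a TSS. In that order, their share of distal peaks was 1.04%, 27.0%, 15.5%, 4.90%, 3.86%, 1.71% and 6.30%, and the number of listed genes near a region was 8, 81, 54, 23, 14, 7 and 22. The share was 9.90% with protein-coding TSSs only, 5.91% when promoter peaks ended a region (20 listed genes) and 8.03% without chromosomes 5, 7 and 8. The median fold moved to 18.6 and 26.3 at scores above 100 and 200, which remove weak peaks by construction.

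The AP-1 ratio stayed below 1 in all 19 alternatives. It was 0.781 with joining up to 5 kb, 0.964 when promoter peaks ended a region, and 0.815 and 0.984 in the upper bins of GC content, a split chosen after the data were seen. Its interval also included 1 at scores above 100 and 200, with sites within 25 bp of the summit and for intergenic summits alone (0.930), whereas for intronic summits it lay below 1 (0.889). The share of nearest genes with a promoter peak was 95.7% with 5 kb, 85.2% with 25 kb, 85.8% with 6 or more peaks, 81.6% at a score above 200, 85.1% when promoter peaks ended a region and 76.0% with the canonical transcript. The cause of these shifts was not tested. No paired analysis was possible because 1 library was analysed, and no replicate could be left out. Pileups of 9 to 14 behind 33.2% of the peaks limit the count of peaks per region.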

Other observations

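The X chromosome, which was outside the definition, had 3 regions that met the same limits, or 1.94 per 100 Mb compared with 19.7 on the autosomes. These numbers per 100 Mb take no account of how many distal peaks a chromosome had. The 3 regions were nearest to MSN, which links actin to the membrane (8 peaks, summed fold 143), to ESX1 (9 peaks, summed fold 138) and to RTL9 (9 peaks, summed fold 123).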
